A study of Arabidopsis thaliana with 4 samples.

Results

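Senescence-associated genes, or SAG genes, are transcripts first collected because their RNA accumulates as Arabidopsis leaves age, and several of them serve as routine markers of leaf senescence. Senescence is an ordered programme in which a leaf takes apart its chloroplasts and proteins and exports the nitrogen, sugars and minerals to growing organs. It is driven by age and by hormones such as abscisic acid, ethylene, jasmonate and salicylic acid, largely through NAC and WRKY transcription factors. The SAG genes encode proteins of unrelated kinds, and many of them also respond to drought, wounding, oxidative stress or pathogens in tissue that is not senescing. The genes described here are SAG12, SAG13, SAG14, SAG20, SAG21 and SAG29, found by their locus identifiers, which makes 6 of the 32548 genes in the deposited table. The set was chosen by its values in the comparison of uba2c with Col-0 that is given here, so the difference of each between the genotypes is given as a description, with no test.

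Per the labels, total RNA was isolated with Trizol from seedlings and sequenced as single-end reads of 50 bp. The wild type was the Col-0 accession and the mutant carried the genotype uba2c(-/-), with 2 libraries of each. UBA2C encodes an RNA-binding protein. Both genotypes were 2 weeks old and had been raised on plates of Murashige and Skoog medium under a long photoperiod, with 16 h of light at 23 °C and 8 h of darkness at 22 °C. The sources used here do not give the lesion in the mutant, the number of independent lines or the hour of harvest. Nor do the labels say whether libraries 1 and 2 of a genotype came from separate plants, so p-values measure only how far these samples spread, and that spread may be technical. Seedlings of this age are young plants, and the labels name no separate sample of leaves.

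Whole reads recovered from the deposited values summed over genes to 19720586 and 19723551 for Col-0 and to 19847651 and 19816174 for uba2c. Values below are the deposited read counts, adjusted by the authors to a common library size, and an error written after ± is the SD of 2 libraries. The UBA2C transcript, the target of the mutation, stood at 799 and 771 in Col-0 and at 209 and 234 in uba2c, which fits the labels of all 4 libraries. The tissue label was checked with 7 shoot and 10 root markers, none of which was at 0 in any library. The shoot markers summed to 566980 and 571700 in Col-0 and to 574210 and 623500 in uba2c, and 4 rose while 2 fell; with edgeR 4 rose and 1 fell without uba2c 1, and 2 rose and 1 fell without uba2c 2, as with limma without Col-0 1 or Col-0 2. Of the falls that of LHCB2.1 (limma adjusted p = 0.0387) was lost in every fit without 1 library (adjusted p from 0.0612 to 0.261). The root markers summed to 4105 and 4486 in Col-0 and to 4526 and 4839 in uba2c, with 4 genes that rose, among them the iron transporter IRT1, and 5 that fell, among them the root hair genes PRP3 and EXPA7. The part of these shifts in the values below was not tested. In RNA from seedlings, fewer cells of a type and less RNA per cell cannot be told apart.

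The 6 SAG genes did not move together. SAG12, SAG13 and SAG14 were lower in uba2c, and SAG20, SAG21 and SAG29 were higher. The libraries of the genotypes did not overlap for any of the 6, which was also the case for 68.1% of the 22439 genes tested. A test of every gene with limma, at a false discovery rate (FDR) of 0.05, called 34.8% of them, 17.4% higher and 17.4% lower, and nothing is read from where the SAG genes stand against that background because the comparison chose them. All 6 passed the filter on low values. With 3 on each side a median over the 6 says little and is not read. Over all genes tested the median log2 fold change was −0.00 and the median absolute change 0.23.

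SAG12 (AT5G45890) encodes a papain-like cysteine protease of senescence-associated vacuoles and is the marker most closely tied to ageing leaves. Its 3 exons occupy the plus strand of chromosome 5 from 18613239 to 18614963 in TAIR10.1. Its value was 39.8 in Col-0 1, 28.0 in Col-0 2 and 0 in both uba2c libraries. The wild type therefore had a low level that differed by 34.8% between its libraries, and the mutant had none detected. In whole reads this was 41 and 29 against 0 and 0, so that 70 reads carry the observation. Against a floor of 3 reads per library SAG12 was at least 11.7-fold lower in uba2c. The fitted log2 change of −6.08, the lowest of all genes tested, depends on the pseudocount of 0.5 added before the logarithm and is no measure of size.

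SAG13 (AT2G29350) encodes a short-chain dehydrogenase that appears early in senescence and also in tissue undergoing pathogen or stress responses. The gene runs from 12600914 to 12602556 on the plus strand of chromosome 2, with 3 annotated transcripts of 4 to 5 exons. It was at 299 and 286 in Col-0 and at 96.1 and 109 in uba2c. Both mutant libraries were thus well under both wild type ones, with means of 292 ± 9.01 and 103 ± 9.07. The log2 fold change was −1.51 (SE 0.11), a level 2.85-fold lower.

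SAG14 (AT5G20230), also named BCB, encodes a blue copper-binding protein and is induced by aluminium and oxidative stress. Its 2 exons lie on chromosome 5 from 6826365 to 6827748, plus strand. Values were 425 and 431 in Col-0 and 267 and 250 in uba2c, again without overlap. The means were 428 ± 4.18 and 258 ± 11.7, a log2 fold change of −0.73 (SE 0.07), or 1.66-fold lower.

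SAG20 (AT3G10985), also named WI12 for its response to wounding, is a gene of 1 exon on chromosome 3 from 3442237 to 3443680, plus strand. It was at 1181 and 1165 in Col-0 and at 1716 and 1801 in uba2c. Both mutant libraries were the high ones, and the libraries of each genotype lay close together. The means were 1173 ± 11.7 and 1759 ± 60.0, a log2 fold change of 0.58 (SE 0.04).

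SAG21 (AT4G02380), also named LEA5, encodes a mitochondrial late embryogenesis abundant protein linked to tolerance of oxidative stress. It lies on the minus strand of chromosome 4 from 1046042 to 1047105, with 3 annotated transcripts of 2 exons each. It had the most reads of the 6, at 2271 and 2268 in Col-0 and 3766 and 3820 in uba2c. Replicates differed by 0.119% in Col-0 and 1.42% in uba2c, far less than the gap between genotypes. The means were 2269 ± 1.95 and 3793 ± 38.0, a log2 fold change of 0.74 (SE 0.035), or 1.67-fold higher. The microRNA gene MIR2936 (AT4G04125) overlaps SAG21 on the same strand and is listed at 0 in all 4 libraries, so reads in the stretch they share cannot be placed.

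SAG29 (AT5G13170), also named SWEET15, encodes a plasma membrane sugar transporter of the SWEET family and is known from senescing leaves, salt stress and seed filling. Its 6 exons span 4181042 to 4183354 on the minus strand of chromosome 5. It was at 121 and 97.7 in Col-0 and at 256 and 257 in uba2c. The wild type libraries differed by 21.5% and the mutant ones by 0.413%, and both wild type values stayed under both mutant values. The means were 109.5 ± 16.7 and 256 ± 0.75, a log2 fold change of 1.23 (SE 0.12), or 2.35-fold higher.

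**Figure D1:**
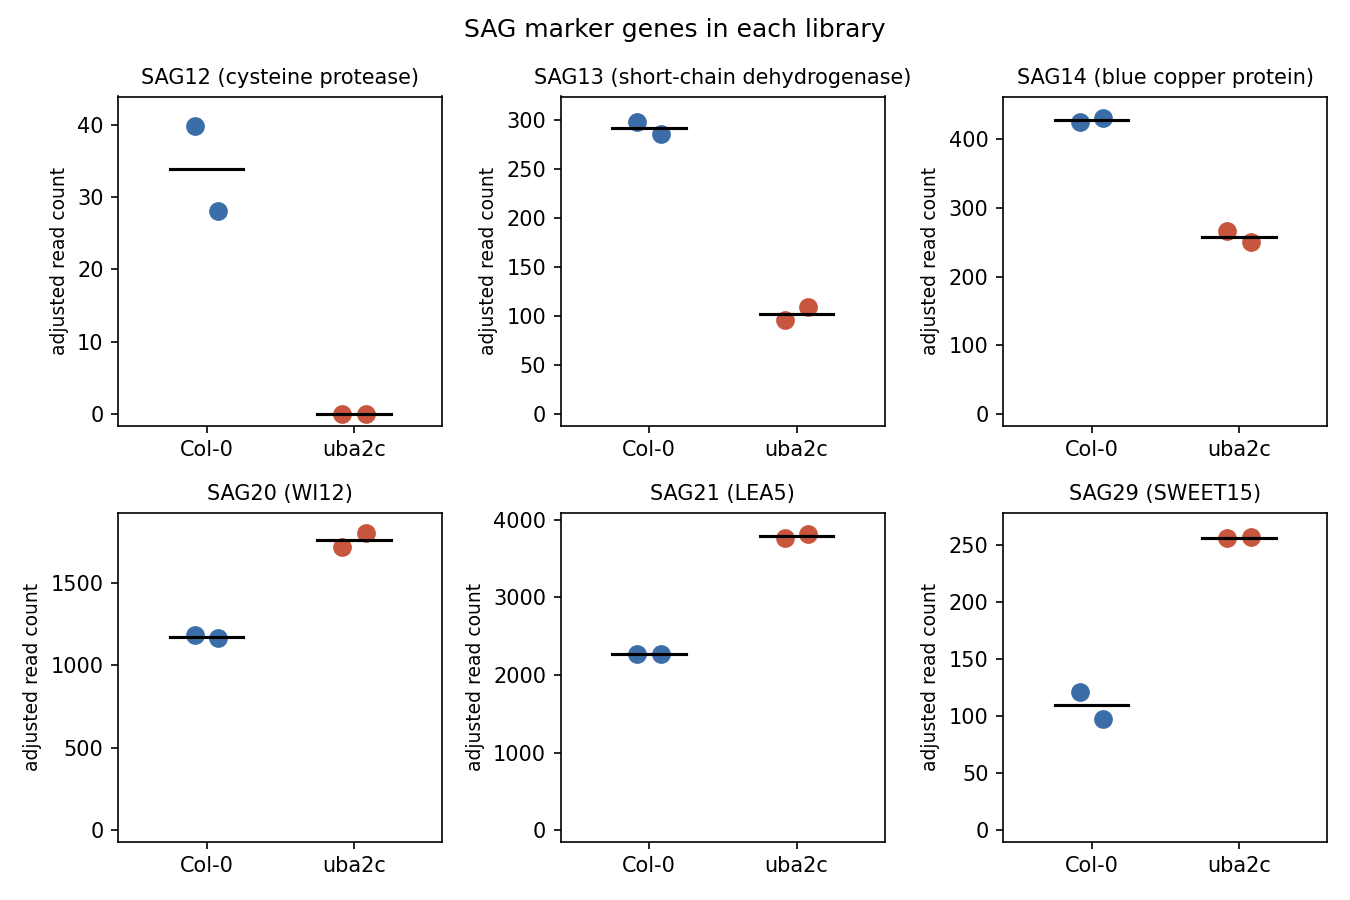
Adjusted read count of each SAG gene in the 4 libraries, with 1 panel per gene, its own vertical axis starting at 0, points for libraries and a line for the mean of 2. SAG12, SAG13 and SAG14 (39.8 and 28.0, 299 and 286, 425 and 431 in Col-0) sit lower in uba2c, and SAG20, SAG21 and SAG29 sit higher.

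The stretch of 250 bases before the annotated start of each SAG gene was read from TAIR10.1, to show which known response elements lie there in genes that were lower and in genes that were higher. The 4 printed are the genes whose values differed most in each direction together with SAG21, the most abundant. In each, written 5′ to 3′ on the strand of the gene, capitals mark the core of the abscisic acid response element (ABRE, ACGTG, contacted by ABF-type bZIP factors) and the core of the W-box (TTGAC, contacted by WRKY factors) on either strand. The regions are chr5:18612989-18613238 (plus strand) for SAG12, chr2:12600664-12600913 (plus) for SAG13, chr4:1047106-1047355 (minus) for SAG21 and chr5:4183355-4183604 (minus) for SAG29.
SAG12: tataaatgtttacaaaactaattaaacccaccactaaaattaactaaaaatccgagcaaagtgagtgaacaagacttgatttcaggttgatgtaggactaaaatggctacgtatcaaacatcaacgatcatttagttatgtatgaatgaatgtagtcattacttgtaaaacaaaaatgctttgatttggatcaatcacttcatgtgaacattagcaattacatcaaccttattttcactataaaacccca
SAG13: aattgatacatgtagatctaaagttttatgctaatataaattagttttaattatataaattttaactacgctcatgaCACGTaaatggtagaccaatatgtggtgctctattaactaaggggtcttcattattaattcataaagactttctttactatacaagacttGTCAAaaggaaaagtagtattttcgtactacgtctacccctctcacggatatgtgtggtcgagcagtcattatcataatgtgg
SAG21: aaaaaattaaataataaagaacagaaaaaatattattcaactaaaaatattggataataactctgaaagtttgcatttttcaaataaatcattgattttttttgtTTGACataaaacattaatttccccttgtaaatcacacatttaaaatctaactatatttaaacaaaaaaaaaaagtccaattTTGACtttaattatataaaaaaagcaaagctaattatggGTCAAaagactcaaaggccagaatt
SAG29: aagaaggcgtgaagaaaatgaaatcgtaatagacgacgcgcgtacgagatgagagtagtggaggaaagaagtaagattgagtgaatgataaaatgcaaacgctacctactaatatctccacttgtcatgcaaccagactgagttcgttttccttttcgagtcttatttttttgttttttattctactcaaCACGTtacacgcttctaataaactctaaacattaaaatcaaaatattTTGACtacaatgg

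An ABRE core was found in SAG13, SAG14 and SAG29, which include genes that were lower and 1 that was higher in uba2c. W-box cores numbered 1 in SAG13, 2 in SAG20, 3 in SAG21 and 1 in SAG29. The ABRE core is present in 23.9% and the W-box core in 45.3% of the 21558 upstream regions of the same length that were searched on both strands. SAG12 held neither core. The G-box (CACGTG, which contains an ABRE core), the DRE core (CCGAC), the GCC box (GCCGCC) and the evening element (AAATATCT) were in none of the 6 windows, against 7.3%, 12.7%, 1.9% and 5.0% of all regions. These are matches of letters only, and no binding was measured. No window overlapped another annotated gene.

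Per kilobase of exon, the levels of the 6 genes covered a wide range. In Col-0 the order was SAG21 at 2344 adjusted reads per kilobase, SAG20 at 812, SAG14 at 359, SAG13 at 214, SAG29 at 81.1 and SAG12 at 26.0. In uba2c it was SAG21 at 3918, SAG20 at 1218, SAG14 at 217, SAG29 at 190, SAG13 at 74.9 and SAG12 at 0. SAG29 and SAG13 thus changed places, and no neighbours in either order overlapped between libraries, although SAG14 (224 and 210 per kilobase) and SAG29 (189 and 190) came close in the mutant. Among all genes tested, the level of SAG21 stood at percentile 96.7 in Col-0 and 98.2 in uba2c, while SAG13 went from percentile 61.7 to 38.0 and SAG29 from 38.5 to 58.8. The adjusted counts of the 6 genes summed to 4337 and 4276 in Col-0 and to 6101 and 6237 in uba2c, most of it SAG20 and SAG21. The genes that were lower in the mutant summed to 764 and 745 in Col-0 and to 363 and 359 in uba2c.

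**Figure D2:**
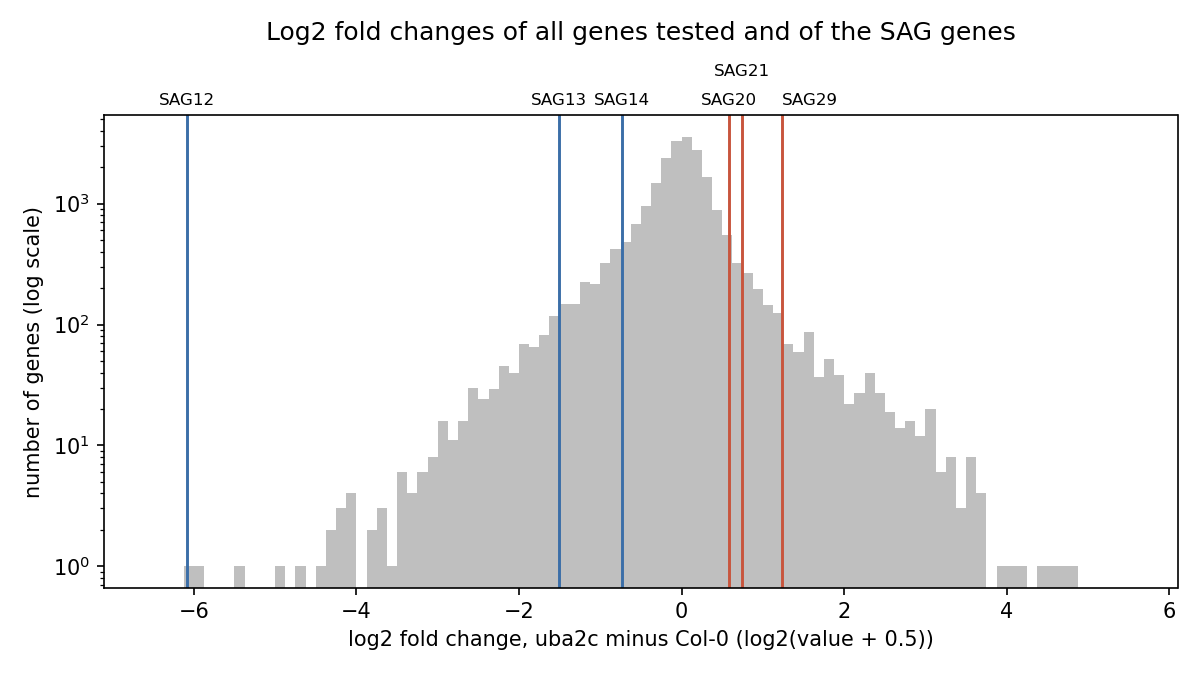
Histogram of the log2 fold change, uba2c minus Col-0, of the 22439 genes tested (horizontal axis, on log2(value + 0.5)), with the number of genes on a log scale (vertical axis) and lines at the 6 SAG genes, blue where lower and red where higher in uba2c. SAG13 has 572 genes below it and SAG29 has 584 above it, and nothing is read from these places because the comparison chose the genes. The place of SAG12 at the far left rests on the pseudocount.

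Each SAG gene was then set among genes of its own protein family, to see how its change compared with those of its relatives. The comparison of uba2c with Col-0 chose the SAG genes, so a change larger than that of relatives is a description only. Counts of relatives exclude the SAG gene itself, and "rose" and "fell" refer to limma with Benjamini-Hochberg adjustment over all genes tested. With uba2c 1 or uba2c 2 left out limma called 0 genes, so for those fits edgeR is given where it lost a call. Of 25 papain-like cysteine proteases tested of 26, 4 rose, 4 fell and 17 did not pass, with a median log2 fold change of −0.03. The largest fall with a mean value of at least 10 was that of CEP2, a KDEL-tailed protease known from dying cells, at 545 and 576 in Col-0 and at 162 and 178 in uba2c (log2 fold change −1.72, adjusted p = 4.41e-06). RD21B (−0.40, adjusted p = 0.000339) and AT4G01610, annotated as a cysteine proteinase (−0.45, adjusted p = 7.89e-05), fell less. CEP3 (0.42, adjusted p = 0.00659), the xylem protease XCP1 (0.33, adjusted p = 0.00923) and SAG2, an aleurain-like protease (0.15, adjusted p = 0.00795), rose slightly. The largest rise was that of AT1G29110, a gene of few reads with a mean value of 8.25, under 10. It had 4 and 2 reads in Col-0 and 16 and 12 in uba2c (4.28-fold higher, limma adjusted p = 0.0113). This gene was not followed singly in the other fits, but it was not among the rises edgeR kept without uba2c 1 or uba2c 2. RD21A and RD19A, the drought-responsive proteases, had log2 fold changes of 0.04 and −0.03 and did not pass. With edgeR, 1 rose and 4 fell without uba2c 1, and 0 rose and 4 fell without uba2c 2. With edgeR and without uba2c 1 the adjusted p was 0.115 for CEP3 and 0.146 for XCP1; without uba2c 2 it was 0.0873 and 0.0829, and 0.0575 for SAG2, which was also lost without Col-0 1 with edgeR (0.0521) and without Col-0 2 with limma (0.0582) and edgeR (0.0630).

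Of 12 SWEET genes tested of 16, besides SAG29, 2 rose and 2 fell, and the median was −0.01. SWEET11 and SWEET12, which load sucrose into the phloem, rose by 0.42 and 0.32 on the log2 scale (limma adjusted p = 0.000241 and 0.00576), less than the 1.23 of SAG29. SWEET13, of the same sucrose-transporting clade, fell from 89.3 and 74.5 to 48.1 and 49.1 (log2 fold change −0.74, limma adjusted p = 0.0118). That call was not made by DESeq2 (adjusted p = 0.0579), limma without Col-0 1 (0.0732) or edgeR without Col-0 1 (0.0532), uba2c 1 (0.111) or uba2c 2 (0.105). For SWEET12 edgeR gave an adjusted p of 0.0819 without uba2c 1. With edgeR, 1 SWEET gene rose and 0 fell without uba2c 1, and 2 rose and 0 fell without uba2c 2.

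Among the 9 blue copper proteins tested of 11, besides SAG14, 1 rose and 3 fell, with a median of −0.09. The uclacyanins UCC3 and UCC1 fell from 63.1 and 51.3 to 5.72 and 11.8 (log2 fold change −2.71, limma adjusted p = 0.000911) and from 319 and 339 to 202 and 211 (−0.67, limma adjusted p = 0.000594). AT5G07475 fell by 0.84 (limma adjusted p = 0.00212, and 0.0514 with edgeR without uba2c 2), about as far as SAG14. UCC2 rose by 0.22 (limma adjusted p = 0.0332), a call lost with DESeq2 (0.0628), with no filter (0.0821), without Col-0 1 with limma (0.130) and edgeR (0.108), and with edgeR without uba2c 1 (0.0892) or uba2c 2 (0.229). With edgeR, 0 rose and 3 fell without uba2c 1, and 0 rose and 2 fell without uba2c 2.

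**Figure D3:**
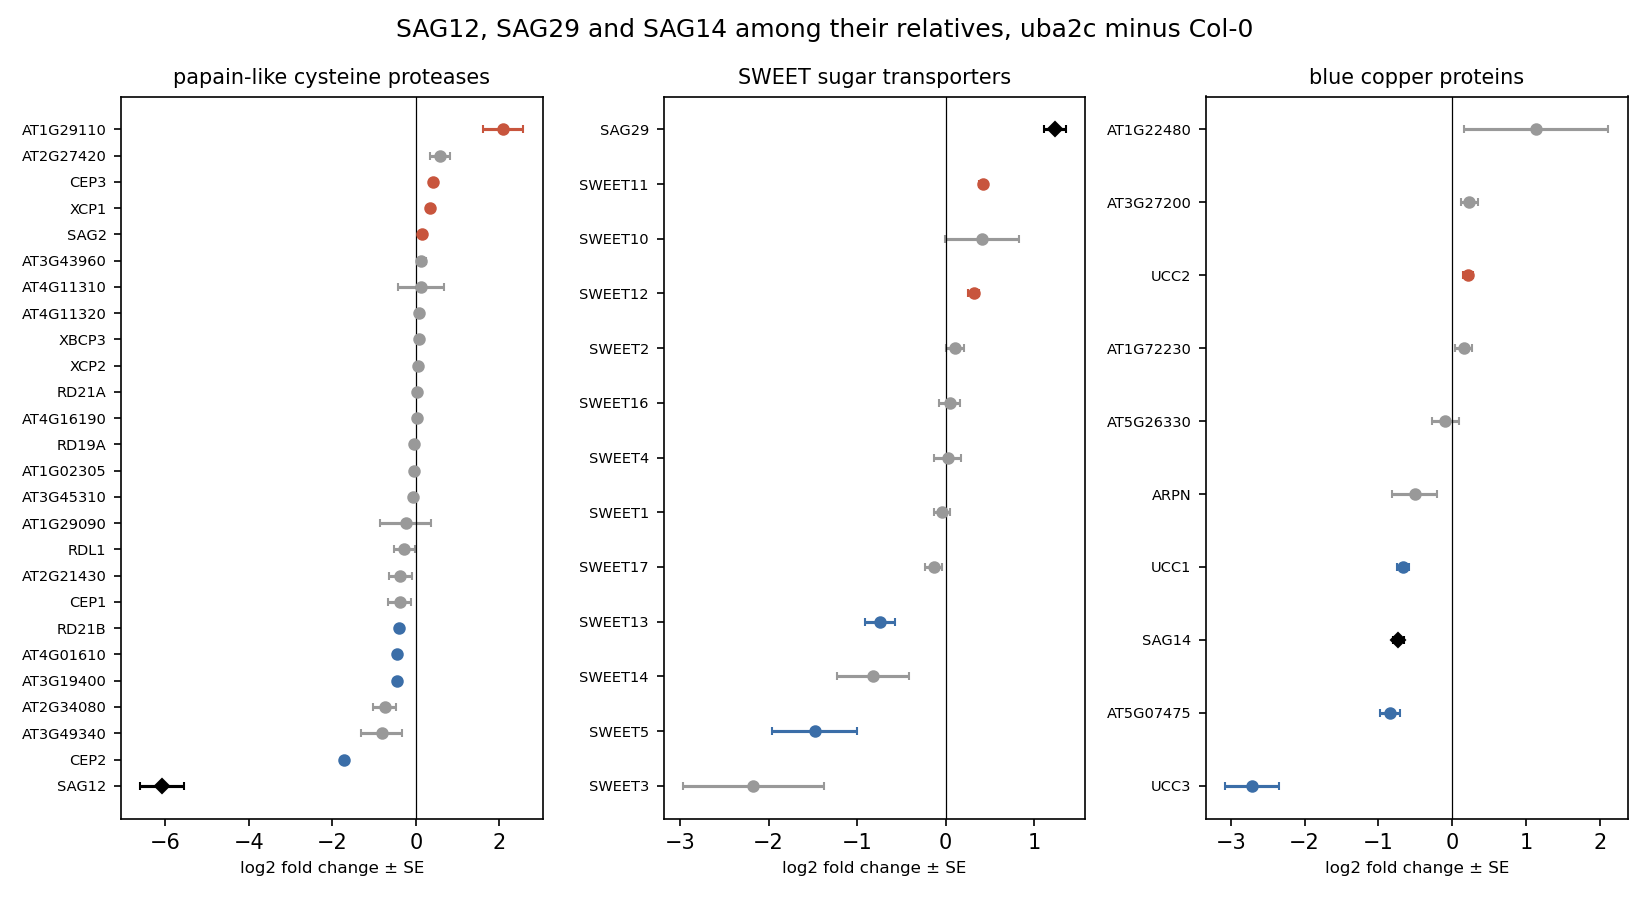
Log2 fold change with its SE, uba2c minus Col-0 (horizontal axes), of the papain-like proteases, SWEET transporters and blue copper proteins tested (rows), with SAG12, SAG29 and SAG14 as black diamonds and relatives in red where they rose, blue where they fell and grey where they did not pass. SAG29 (1.23) lies above every SWEET relative tested, while SAG14 (−0.73) lies between UCC1 (−0.67) and AT5G07475 (−0.84).

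SAG13 belongs to a run of tropinone reductase-like dehydrogenase genes on chromosome 2, and its relatives there moved both ways. Of 10 tested of 11, 3 rose and 5 fell, with a median of −0.25, and with edgeR 3 rose and 2 fell without uba2c 1 and 3 rose and 4 fell without uba2c 2. The neighbour just before SAG13, AT2G29340, was at 796 and 827 in Col-0 and 1204 and 1163 in uba2c (log2 fold change 0.54, limma adjusted p = 0.000114). The neighbour just after it, AT2G29360, was at 1242 and 1283 in Col-0 and 873 and 847 in uba2c (−0.55, limma adjusted p = 8.73e-05). AT2G29300 rose most, by 1.47 (limma adjusted p = 4.27e-06), close to the size of the SAG13 change but in the other direction. AT2G29310 rose by 0.27 (adjusted p = 0.00135), AT2G29320 fell by 0.42 (adjusted p = 0.00101) and AT2G29290 fell by 0.26 (adjusted p = 0.00212, and 0.0571 with edgeR without uba2c 1). Of the 1172 words of 50 bases in the SAG13 exons, 1 occurs elsewhere in the genome, so reads of this length are nearly all particular to it, and for the other SAG genes there was none.

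**Figure D4:**
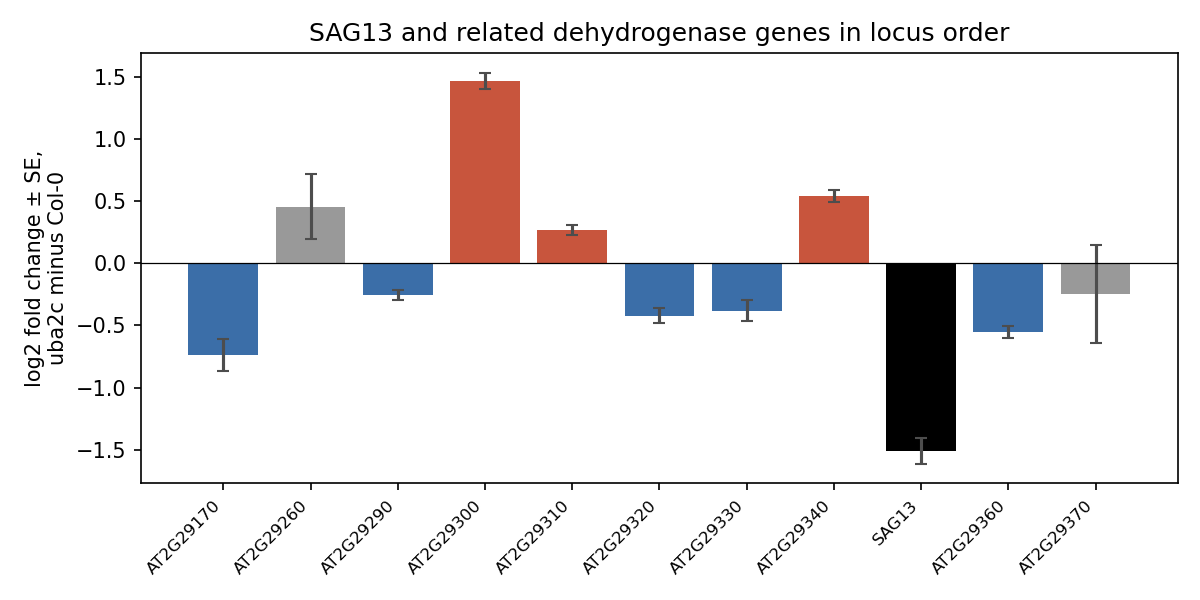
Log2 fold change with its SE, uba2c minus Col-0 (vertical axis), of SAG13 (black) and of the 10 related dehydrogenase genes tested, in locus order (horizontal axis), in red where they rose, blue where they fell and grey where they did not pass. AT2G29340 (0.54), just before SAG13 (−1.51), has the opposite sign, and AT2G29360 (−0.55), just after it, has the same sign as SAG13.

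SAG20 and SAG21 had few relatives. Of 3 tested of 4, AT5G01740, annotated in the nuclear transport factor family, rose from 81.2 and 117 to 353 and 313 (log2 fold change 1.77, limma adjusted p = 0.000152), further than SAG20. DI21, a drought-induced LEA gene, fell from 1223 and 1095 to 887 and 832 (−0.43, limma adjusted p = 0.00162), opposite to SAG21, and edgeR lost that call without uba2c 1 (adjusted p = 0.0641) or uba2c 2 (0.0846). LEA3 was at 101 and 108 in Col-0 and 104 and 155 in uba2c and did not pass (limma adjusted p = 0.267).

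Other genes named for senescence also split. Of 13 further SAG, SEN, SRG and YLS genes, 5 rose, 2 fell and 6 did not pass, with a median of 0.11. SAG113, a protein phosphatase that acts in abscisic acid signalling in ageing leaves, rose from 65.8 and 76.6 to 533 and 586 (log2 fold change 2.97, limma adjusted p = 1.66e-06). SEN1, a dark-inducible gene, rose from 2080 and 2162 to 4192 and 4446 (2.04-fold, adjusted p = 2.69e-06). SAG24 rose by 0.30 (adjusted p = 0.00152), YLS5 fell by 0.44 (adjusted p = 0.00119) and SRG1 fell by 0.53 (adjusted p = 0.00407). The calls of SAG24, YLS5 and SRG1 were lost with edgeR without uba2c 1 (adjusted p = 0.0628, 0.0667 and 0.0774) or uba2c 2 (0.0629, 0.0555 and 0.0722). With edgeR, 3 of the 13 rose and 0 fell without uba2c 1, and 2 rose and 0 fell without uba2c 2, as SAG101 and, without uba2c 2, SAG2 were lost too (values beside their lists).

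Among 25 transcription factors of senescence, 11 rose and 8 fell, with a median of 0.14. The NAC factors RD26 (log2 fold change 1.27), NAC019 (1.65) and ATAF1 (0.80) rose, with limma adjusted p of 1.34e-05, 3.69e-05 and 1.55e-05. ORE1, a main activator of leaf senescence, went from 363 and 355 to 603 and 568 (0.70, adjusted p = 0.000124), and NAP from 497 and 461 to 633 and 622 (0.39, adjusted p = 0.00217). WRKY70 and WRKY54, which delay senescence, fell from 897 and 955 to 428 and 458 (−1.06, adjusted p = 1.33e-05) and from 140 and 109 to 46.2 and 44.1 (−1.44, adjusted p = 0.000499), the latter lost with edgeR without uba2c 1 (0.0561) or uba2c 2 (0.0570). VNI2 (annotated as NAC083), a NAC factor that delays senescence, fell by 0.56 (adjusted p = 0.000507). WRKY6 (−0.72), WRKY45 (−0.73), NAC047 (−0.66), WRKY57 (−0.60) and WRKY22 (−0.30) made up the other falls. Their limma adjusted p was 0.00154, 0.000983, 0.00409, 0.00692 and 0.041. The list is therefore not read as a shift towards or away from senescence. WRKY53, an early senescence factor, had a log2 fold change of 0.02 and did not pass. The calls of ORE1, NAP, WRKY6, WRKY45, NAC047, WRKY57 and WRKY22 were not followed gene by gene in the other fits. Those lost there are therefore not named. With edgeR, 9 rose and 6 fell without uba2c 1, and 8 rose and 4 fell without uba2c 2.

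Genes of the breakdown and export steps were compared next. Of 9 chlorophyll breakdown genes 2 rose and 4 fell, with a median of −0.18. NYC1, a chlorophyll b reductase, rose by 0.19 (limma adjusted p = 0.00533, and 0.0584 with edgeR without uba2c 1), AT4G11910, annotated as a STAY-GREEN-like gene, fell by 1.11 (adjusted p = 0.000589), and PPH, the pheophytinase, fell by 0.34 (adjusted p = 0.000731). The other rise, of HCAR, was lost with no filter (0.0759), with DESeq2 (0.135) and with edgeR without uba2c 1 (0.178) or uba2c 2 (0.0562). With edgeR, 0 chlorophyll genes rose and 2 fell without uba2c 1, and 1 rose and 2 fell without uba2c 2; with limma 1 rose and 3 fell without Col-0 1 or Col-0 2. Of 9 nutrient remobilisation genes 3 rose and 5 fell, with a median of −0.14. ASN1, the dark-inducible asparagine synthetase, rose by 0.79 (adjusted p = 3.13e-06) and the nitrate transporter NRT1.5 by 0.60 (adjusted p = 2.04e-05), while the cytosolic glutamine synthetases GLN1;1 and GLN1;4 fell by 0.83 and 1.38 (adjusted p = 6.84e-06 and 0.000286). Of 10 genes linked to programmed cell death 0 rose and 4 fell, led by GAMMA-VPE, a vacuolar processing enzyme (−0.69, adjusted p = 4.41e-06). With edgeR 1 of the cell death genes fell without uba2c 1, and 1 without uba2c 2; of the remobilisation genes 3 rose and 3 fell without uba2c 1, and 2 rose and 3 fell without uba2c 2.

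Hormone response genes were compared because abscisic acid and salicylic acid both act on SAG genes. Of 15 abscisic acid response genes, 13 rose and 2 fell, with a median log2 fold change of 0.78. SAG113 is counted here as well. Over all genes tested, limma called 17.4% higher and 17.4% lower. Both hormone lists were chosen with earlier results of these data known, so their counts are descriptions and test nothing. RD29B, a desiccation-responsive gene, rose from 29.9 and 44.7 to 890 and 977 (4.65, limma adjusted p = 1.72e-06) and RD29A by 0.87 (adjusted p = 2.05e-06). COR15A, better known from cold, fell by 0.30 (limma adjusted p = 0.00224) and KIN2 by 0.32 (limma adjusted p = 0.00688). The KIN2 call was lost with edgeR without uba2c 1. With edgeR, 13 rose without uba2c 1 and 12 without uba2c 2. Of 11 salicylic acid response genes, 3 rose and 4 fell, with a median of −0.12. EDS5, a transporter needed for salicylic acid synthesis, fell by 0.85 (adjusted p = 0.00162), PAD4, a lipase-like immune regulator, fell by 0.55 (adjusted p = 0.000693), and PR2, a glucanase, fell by 0.82 (adjusted p = 0.000562). PR1, the classical marker of that hormone, rose by 0.40 (limma adjusted p = 0.00214). SAG101, a partner of PAD4 counted also among the SAG genes above, rose by 0.36 (limma adjusted p = 0.0114, and 0.0685 with DESeq2). PR5 rose by 0.38 (limma adjusted p = 0.045), a call lost with no filter (0.0786) and with DESeq2 (0.171). The PR5 call was also lost in every fit without 1 library. With edgeR the calls of PR1, PR2 and SAG101 were lost without uba2c 1 (adjusted p = 0.0632, 0.0566 and 0.0797) or uba2c 2 (0.0670, 0.0601 and 0.103), and 0 rose and 2 fell in either case.

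**Figure D5:**
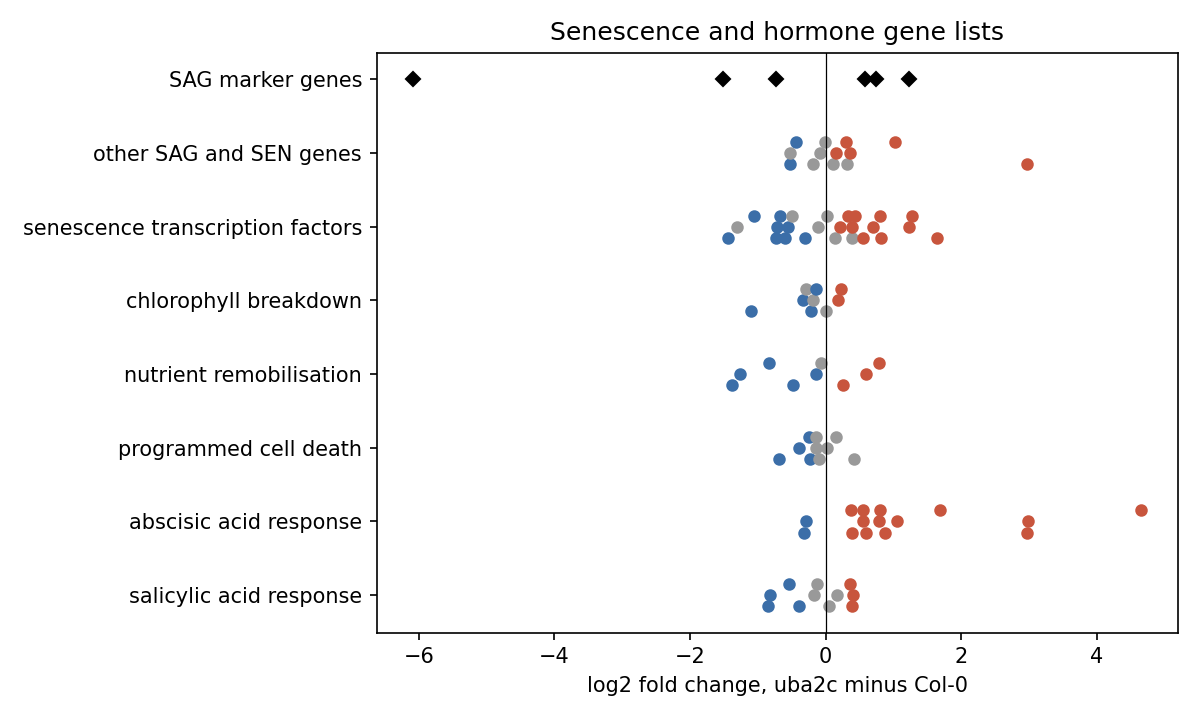
Log2 fold change, uba2c minus Col-0 (horizontal axis), of the 6 SAG genes (black diamonds) and of 7 lists of senescence and hormone genes (rows), with 1 point per gene, red where it rose, blue where it fell and grey where it did not pass; vertical offsets only separate points. The abscisic acid row has 13 points to the right and 2 to the left, while the other rows spread to both sides. All lists were chosen with earlier results of these data known.

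Reads from opposite strands cannot be told apart where the use of strand in counting is unknown, and ATAF1, VNI2, ASN1, NRT1.5, GAMMA-VPE, XCP1, EDS5 and EXPA7 overlap a gene on the other strand, while UBA2C and AT2G29290 overlap one on their own. Their values are uncertain to that extent. None of the 6 SAG genes overlaps a gene on the other strand.

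Of the 12 nearest tested neighbours of the SAG genes, 1 rose, 3 fell and 8 did not pass, a share called near the 34.8% of all genes tested. APG7, an autophagy gene 211 bp from SAG12, was at 301 and 279 in Col-0 and 298 and 303 in uba2c. PYL11, an abscisic acid receptor gene 8561 bp away on its other side, had 4 and 5 reads in Col-0 and 1 and 0 in uba2c (log2 fold change −2.50, limma adjusted p = 0.0382), and the call was lost with no filter (0.0569) and with edgeR without uba2c 1 (0.0534) or uba2c 2 (0.191). PBS1, a kinase gene of immunity 1032 bp from SAG29, had a log2 fold change of −0.02 (limma adjusted p = 0.835, with a sign that depends on the libraries used), and VNI2, which lies 12901 bp from SAG29 on its other side and is described above, fell while SAG29 was higher. The flanking genes of SAG14, SAG20 and SAG21 did not pass.

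For each SAG gene the genes with the most similar pattern were found by the Euclidean distance of log2 values, centred on each gene's mean, over the 4 libraries. For SAG12 the nearest were PIP5K5, a phosphoinositide kinase gene, at a distance of 1.16, and NATA1, an acetyltransferase gene induced by jasmonate, at 1.61. PIP5K5 went from 92.0 and 107 to 2.90 and 0.97, and NATA1 from 175 and 197 to 0.92 and 5.91, so both came close to 0 in uba2c. The nearest to SAG13 was ATSDI1, a gene of sulphur deficiency (0.04), to SAG14 the ferric reductase gene FRO8 (0.02), and to SAG20 AT1G21680 (0.01). CIPK9, a kinase gene of potassium nutrition (0.02), was nearest to SAG21, and MPK14, a mitogen-activated protein kinase gene (0.04), to SAG29. With 4 libraries in 2 genotypes the distance mostly ranks genes by the size of their change, and the distances of SAG12, which is at 0 in uba2c, are set by the pseudocount and are not compared with the others.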

How the data were processed

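RNA-seq of 4 seedling libraries, 2 of Col-0 and 2 of uba2c, was used. The tools named per the submitters' processing notes are HISAT2, featureCounts, edgeR, FastQC and SAMtools 1.9, with TAIR10 as build, and the sources used here do not give counting options or strand. What the authors deposited is a signal per gene, in read counts brought to one common library size. They behave as edgeR's pseudo-counts within each genotype, and 100% of the values came back to whole reads within a tolerance of 0.001. The table has 0 columns of other samples.

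The design took the deposited values as adjusted for library size, with no count test as the main one. As the values are normalised, limma 3.58.1 (R 4.3.3, with a mean-variance trend, two-sided) was run on log2(value + 0.5) for the 22439 genes that reached a value of 1 in 2 or more libraries, and Benjamini-Hochberg adjustment used an FDR of 0.05. Fold changes on this scale understate the change of low genes. With 2 libraries per genotype an exact permutation test cannot go below p = 0.333. edgeR 4.0.16 (quasi-likelihood test) called 8416 genes from the recovered reads, and DESeq2 1.42.0 was a further alternative, as were other pseudocounts, filters and scalings, each library left out and a replicate block. Replicates differed by more than sampling noise (chi-square over degrees of freedom 1.49 and 1.97). The floor of 3 reads covers counting error only. The fitting steps were tested on simulated data.

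Symbols, exons and sequences came from TAIR10.1 (RefSeq), in which all 32548 identifiers matched. From each of 14 lists, up to 3 genes that rose and 3 that fell were selected, by p, at a mean value of at least 10. The nearest neighbours and 2 nearest patterns per SAG gene were also taken. Some of the genes so selected, such as NOL, LHT1, RNS2 and TCH4, are not described above. ORE1, NAP, WRKY53, RD21A, RD19A, LEA3, AT1G29110, WRKY6, WRKY22, WRKY45, WRKY57 and NAC047 were named outside that rule, after their values were seen. The alternative fits were not followed gene by gene for these. The SAG genes and all lists were chosen with earlier results of these data known.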

Additional observations from a re-analysis of the deposited data

How the results depend on the processing

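The limits lie in the number of libraries. With limma and without uba2c 1 or uba2c 2, 0 genes passed (7513 and 7412 at an unadjusted p under 0.05, and 2963 and 2978 adjusted with edgeR), so every limma call above was lost there; without a Col-0 library 6395 and 6519 passed. Leaving out 1 library each gave 0 to 6519 genes past the FDR with limma and 2963 to 6720 with edgeR. DESeq2 called 4931 genes, no filter 6412, a filter at 10 8849, and edgeR scaled to library totals 7588.

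All 6 SAG genes kept their direction under every alternative run. The fitted change of SAG12 was −5.11 with a pseudocount of 1, −8.13 with edgeR, −7.57 with DESeq2 and −8.14 with edgeR scaled to library totals, as a group at 0 has no fixed fold. Without either uba2c library it was −6.08 with limma and −8.13 to −8.14 with edgeR, a gap between tools and not an effect of a library, and without a Col-0 library SAG12 could not be fitted because of the filter. With edgeR scaled to library totals SAG21 was at 0.73. Over the fits without 1 library, log2 changes were −1.60 to −1.42 (SAG13), −0.78 to −0.68 (SAG14), 0.55 to 0.62 (SAG20), 0.73 to 0.75 (SAG21) and 1.08 to 1.39 (SAG29).

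PBS1 turned to 0.015 with limma and 0.017 with edgeR without Col-0 1, against −0.0494 with limma without Col-0 2; the cause was not tested. Same-numbered libraries did not deviate together (r = 0.008 over 19816 genes). A correlation of this kind cannot show whether they were handled together. With a replicate block 8025 genes passed. SAG12 rests on 70 reads.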
